A study of Mus musculus with 2 samples.

Results

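The ATF4-CHOP stress genes described here are 10 mouse genes of the integrated stress response: Atf4, Ddit3, Atf3, Atf5, Trib3, Ppp1r15a, Chac1, Asns, Sesn2 and Ddit4. They were chosen by name, from a contrast whose differences between these same arrays were already known, so their values against the control line are a description and carry no test. All 10 were matched through the RefSeq accessions in the scanner files, by 11 probes, out of 20433 genes that could be named. The study compared ATDC5, a mouse chondrogenic (cartilage-forming) cell line, in stable lentiviral derivatives. The control line carried GFP, a fluorescent protein, according to its label. The other line's label gives overexpression of HES1, a transcriptional repressor downstream of Notch receptors. Both were made by lentiviral transduction, per the series design, and had grown for 3 days in monolayer before total RNA was taken. The labels do not name the promoter of the transgene or say whether a line was a clone or a pool. Each line was measured on 1 single-colour Agilent array, so there were no replicates, no difference has a p-value, and culture, RNA extraction and array position cannot be told apart from the line.

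The integrated stress response begins when a kinase phosphorylates the translation initiation factor eIF2α. General protein synthesis slows, while the mRNA of Atf4 is translated more, because of short upstream reading frames. ATF4 is a bZIP transcription factor that pairs with C/EBP proteins, binds composite C/EBP-ATF elements and turns on genes for amino acid supply together with the factors CHOP (encoded by Ddit3), ATF3 and ATF5. In cartilage, ATF4 is known for its part in growth plate chondrocytes, and CHOP for its appearance in chondrocytes with misfolded collagen. An array reads RNA and gives no measure of the translation step.

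A promoter window from 250 bases before to 50 bases after the annotated start was on hand for all 10 genes, with 11 windows since Atf5 had a pair (RefSeq, build GRCm38.p6). Both strands were searched for TGATGNAA (N is any base), the letters of the C/EBP-ATF element that ATF4 binds. It was present in the windows of 4 of the 10 members, Atf3, Chac1, Asns and Trib3, and in 3.97% of all 32851 mouse windows. The member figure counts genes and the other counts windows. The members were chosen as genes of this response, so nothing is read from the difference in share. The full cAMP response element, TGACGTCA, which ATF and CREB dimers bind, was present in Ppp1r15a alone among the members, and in 1.79% of all windows. These stretches are shown because they place the letters of the ATF4 site in the genes whose signals follow. Each is printed 5′ to 3′ on the strand of its gene, with the match in capitals, and positions count from the annotated start, with the base before it at -1.
Atf3: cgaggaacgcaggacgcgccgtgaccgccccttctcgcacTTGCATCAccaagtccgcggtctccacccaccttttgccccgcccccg
Chac1: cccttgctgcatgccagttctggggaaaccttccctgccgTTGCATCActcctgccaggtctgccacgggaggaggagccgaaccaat
Asns: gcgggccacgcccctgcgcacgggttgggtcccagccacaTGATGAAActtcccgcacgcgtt
Trib3: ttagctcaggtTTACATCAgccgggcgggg
Ppp1r15a: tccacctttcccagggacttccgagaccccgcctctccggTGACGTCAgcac

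The Atf3 stretch lies at chr1:191183396-191183483 on the minus strand, and its match runs from -110 to -103. The Chac1 stretch lies at chr2:119351009-119351096 on the plus strand, with the match from -193 to -186. Both carry the same letters, TTGCATCA, which hold the element on the strand opposite the gene. The Asns stretch lies at chr6:7693210-7693272 on the minus strand, with TGATGAAA on the gene's own strand from -23 to -16. In Trib3 the match lies after the annotated start, from 15 to 22, in a stretch at chr2:152344028-152344057 on the minus strand. Counting only the 250 bases before the start, 3 of the 10 members and 3.45% of all windows held the element. The Ppp1r15a stretch lies at chr7:45526269-45526320 on the minus strand, and its palindromic match runs from -12 to -5.

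CCACG, the part of the endoplasmic reticulum (ER) stress element that ATF6 binds, lies within the whole element and was searched by itself on both strands. It was in the windows of 7 members (Asns, Atf4, Atf5, Chac1, Ddit4, Ppp1r15a and Sesn2) and in 32.8% of all windows. The whole ER stress element was in 0 member windows and in 0.119% of all windows. Ddit3 held none of these motifs within the window. A match describes letters and not binding, and a window of this size leaves out sites further upstream.

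**Figure D1:**
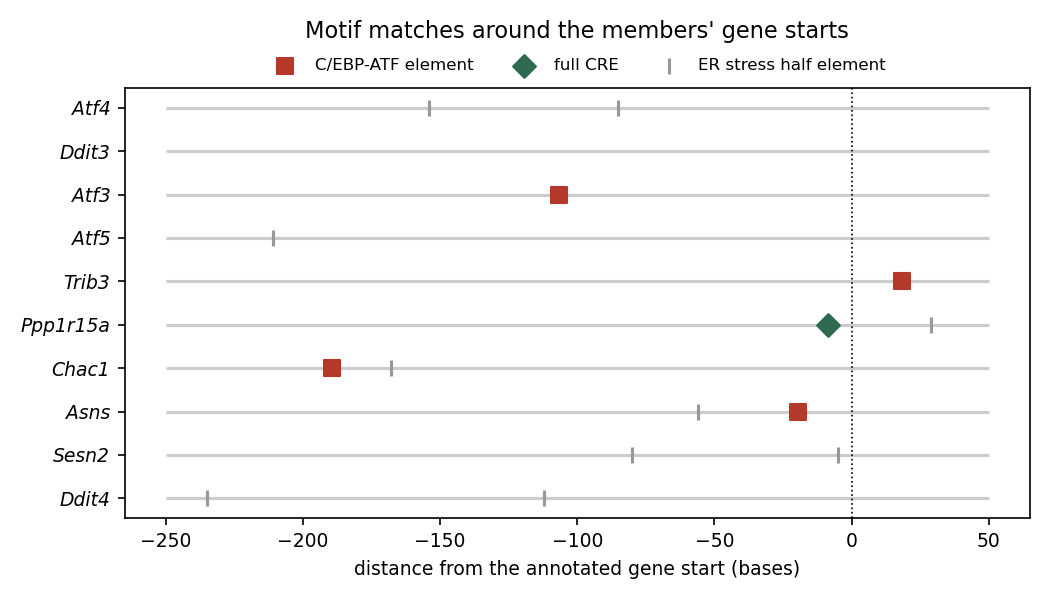
Places of the C/EBP-ATF element (squares), the full cAMP response element (diamond) and the CCACG part of the ER stress element (ticks) in windows around the annotated starts of the 10 members; the horizontal axis is distance from the start in bases. The C/EBP-ATF element is in Atf3, Chac1 and Asns before the start and in Trib3 after it.

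Signals below are the scanner's processed intensities, with both arrays set to the same 75th percentile of 1057.2. They can be compared between the arrays for a probe, and not between genes. All 10 members were well above background on both arrays, by the scanner's own flag, and no member spot was saturated. Every member probe had a single spot on each array, and the scanner's error model gave a technical error of 0.20 on the log2 scale for each difference. That error does not include differences between cultures. In bulk RNA, a change in the number of cells that express a gene and a change in RNA per cell cannot be told apart.

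The members were higher in the HES1-labelled line by very unequal amounts. Of the 10, 7 passed 2-fold upward, 0 passed it downward and 3 lay between, 1 of them with the lower signal in the HES1-labelled line. Across the array, 11.1% of the 14273 genes well above background on at least 1 array passed 2-fold upward and 4.95% downward. Since the members were chosen from this contrast, nothing is read from that difference in share. Their median log2 difference was 1.73, against -0.06 for all 14273 genes. At 1.5-fold the count of members higher was 8, beside 17.4% of all genes, and at 3-fold it was 5, beside 6.99%.

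**Figure D2:**
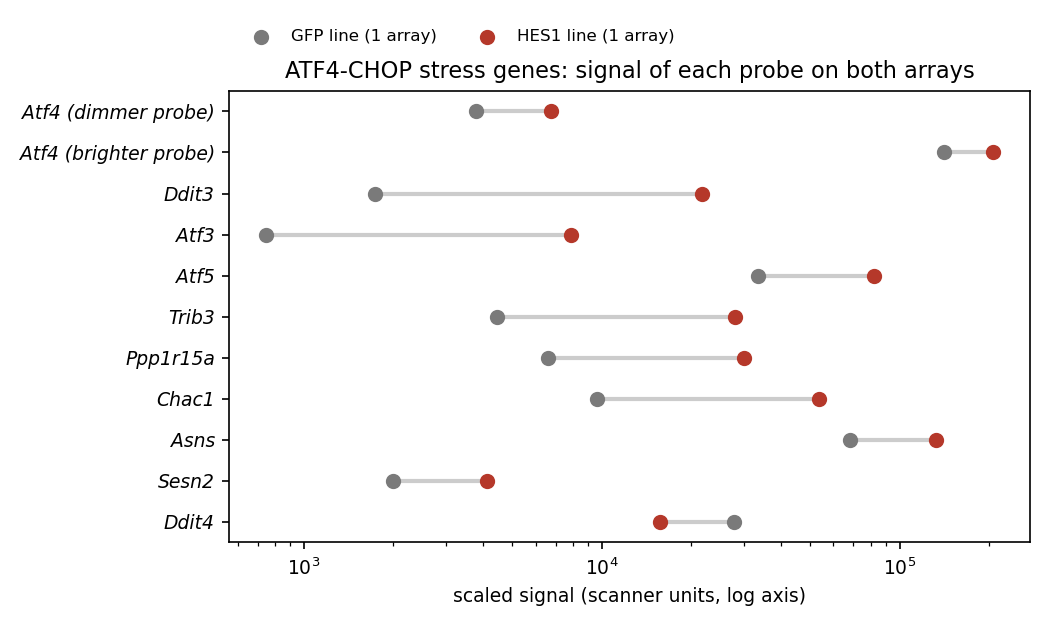
Scaled signal of each of the 11 member probes on the array of the GFP-labelled line (grey) and of the HES1-labelled line (red), on a log axis in scanner units, 1 array per line. Ddit4 is the single gene whose red point lies to the left of the grey one.

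Among the transcription factors, Ddit3 and Atf3 had by far the larger differences, while Atf5 and Atf4 differed less. Ddit3, the gene of CHOP, a factor that promotes apoptosis under lasting stress, gave a signal of 1737 in the GFP-labelled line and 21785 in the HES1-labelled line. It was the highest of the members, with a log2 difference of 3.65 ± 0.20 (technical error, 1 array per line), a 12.5-fold difference that ranked 293 from the top among 14273 genes. Atf3, a stress-induced bZIP factor that often represses transcription, went from 746 to 7901. Its log2 difference of 3.40 (10.6-fold) was lower than that of Ddit3 by 0.24, less than the combined technical error of 0.29, so the order of these genes is not resolved. Atf5, a relative of ATF4 whose mRNA is also controlled by upstream reading frames, had signals of 33585 and 81977. That is a log2 difference of 1.29, or 2.44-fold.

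Atf4 was read by a pair of probes, and both were within 2-fold. The brighter probe had signals of 140606 in the GFP-labelled line and 206431 in the HES1-labelled line, a log2 difference of 0.55 (1.47-fold). The dimmer probe had 3778 and 6781, a log2 difference of 0.84 (1.79-fold). The probes differed from each other by 0.29, about the size of their combined technical error of 0.29. Both were higher in the HES1-labelled line by more than the technical error of each. Atf4 stood 2573 from the top among all genes by its brighter probe.

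The feedback inhibitors of the response were both at least 3-fold higher, beside 6.99% of all genes. Trib3, a pseudokinase that binds ATF4 and CHOP and limits their activity, went from 4465 to 27954, a log2 difference of 2.65 (6.26-fold). Ppp1r15a, which encodes GADD34, directs protein phosphatase 1 to eIF2α and so reverses the phosphorylation that starts the response. Its signals were 6611 and 29999, a log2 difference of 2.18 (4.54-fold). Its constitutive paralog Ppp1r15b had 572 and 716, a log2 difference of 0.32. The stress-induced cofactor was past 2-fold and its constitutive paralog was not.

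The metabolic members split. Chac1, an enzyme that degrades glutathione, went from 9634 to 53655, a log2 difference of 2.48 (5.57-fold). Its step below Trib3, 0.17, was smaller than the combined technical error of 0.29, and its step above Ppp1r15a, 0.30, was barely larger. Asns, which makes asparagine, had 68307 and 132634. Its log2 difference of 0.96 (1.94-fold) fell just short of the 2-fold line, and it was past that line under 4 of 12 processing settings. Asns and Chac1 both hold the C/EBP-ATF letters shown above.

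The members that restrain mTORC1, the kinase complex that couples growth to nutrients, went opposite ways. Sesn2, a leucine sensor that holds mTORC1 back through the GATOR complexes, had signals of 1987 in the GFP-labelled line and 4133 in the HES1-labelled line. Its log2 difference of 1.06 (2.08-fold) was the smallest that passed 2-fold, and under a normexp background correction it was 0.96. Ddit4, which encodes REDD1 and restrains mTORC1 through the TSC complex, had 27814 and 15740.5. It was thus 1.77-fold lower, with a log2 difference of -0.82, and stood 1131 from the bottom of all genes. The gap in log2 difference between Ddit4 and the next member up, Atf4, was 1.38, against a combined technical error of 0.29.

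**Figure D3:**
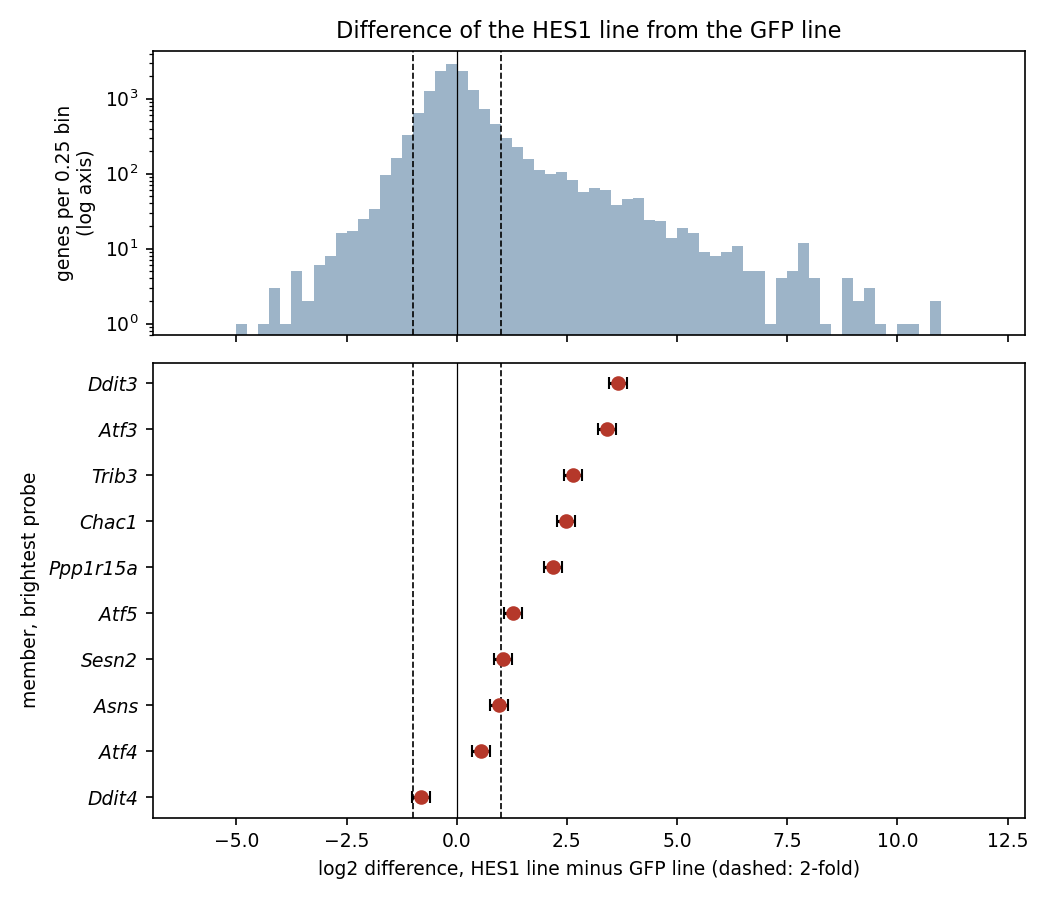
Upper panel, number of genes per bin of 0.25 in log2 difference of the HES1-labelled line minus the GFP-labelled line, for 14273 genes, on a log axis. Lower panel, the same difference for the brightest probe of each member with the scanner's technical error as bars; dashed lines mark 2-fold, and 7 members lie at or beyond the upper line.

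By size the members fell into 5 above 3-fold (Ddit3, Atf3, Trib3, Chac1 and Ppp1r15a), beside 6.99% of all genes. Then came Atf5, Sesn2 and Asns between 1.94-fold and 2.44-fold, then Atf4 and Ddit4. Atf5, Sesn2 and Asns were not resolved from their neighbours in that order, with steps of 0.23 and 0.10. The steps from Atf3 to Trib3 (0.76), from Ppp1r15a to Atf5 (0.89) and from Asns to Atf4 (0.40) exceeded the combined technical error. Genes holding the C/EBP-ATF letters ranged in log2 difference from Atf3 at 3.40 to Asns at 0.96. Ddit3, without them in its window, was the highest.

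The member spots lay in ordinary surroundings on the slide. Around each spot, the 36 to 67 detected spots within 5 rows and columns gave a median log2 difference between -0.17 and -0.02. The difference of the scanned images before scaling was lower than the scaled one by 0.08 for every probe. Over the array as a whole, 54.6% of spots were above background for the GFP-labelled line and 56.6% for the HES1-labelled line. The 8 detected spike-in controls differed by -0.08 to 0.10. The probe of mouse Hes1 was not above background in either line (10.2 and 10.3), so it does not check the labels.

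Markers of cartilage and of other cell types also differed between the lines. Of 12 chondrocyte markers, 9 were seen on at least 1 array, with a median log2 difference of -0.37 and summed signals of 55181 in the GFP-labelled line and 44152 in the other. Most of each chondrocyte sum was 1 Sox5 probe (34961 and 31887), while the other Sox5 probe gave 227 and 160. Col2a1, the main cartilage collagen, had 13796 and 7379 (-0.90 on the log2 scale), while Sox9, the master factor of chondrocytes, had 3683 and 3227 (-0.19). Col11a1 (-0.89) and Comp (-0.88) were lower within 2-fold too, and Hapln1, Matn1 and Matn3 were not above background. Sox6 was the 1 chondrocyte marker past 2-fold downward (-1.04). It had 57.7 in the GFP-labelled line and 28.1, not above background, in the other. Of 6 osteoblast markers 4 were seen, with a median of -1.12 and summed signals of 15835 and 8463. Sp7 (-1.41) and Ibsp (-1.66) were past 2-fold downward, and Bglap and Dmp1 were not seen. Of 5 endothelial markers 3 were seen, with a median of 0.06 and sums of 8885 and 10072, and Vwf was higher by 1.81. Most of each endothelial sum was 1 Kdr probe (8354 and 8691). The other Kdr probe gave 10.8, not above background, in the GFP-labelled line and 480 in the HES1-labelled line. Of 11 leukocyte markers 5 were seen, with a median log2 difference of 0.19. Their summed signal was 50720 in the GFP-labelled line and 26056 in the other. Most of each leukocyte sum was 1 Itgam probe (47669 and 22759). The other Itgam probes were higher in the HES1-labelled line (67.4 and 93.6, 71.6 and 85.4). Ptprc (0.92) and Cd79a (1.24) were higher too, each above background in the HES1-labelled line alone. Csf1r, a macrophage receptor, was above background on both arrays by a pair of its probes (1978 and 2030 by the brighter), as was Cd3e, a T cell receptor chain (1025 and 1168). Lyz2, Tyrobp and Adgre1 were not above background on either array. The part of these markers in the members' differences was not tested.

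Upstream of ATF4, 1 eIF2α kinase was past 2-fold. Eif2ak2, which encodes PKR, the kinase that senses double-stranded RNA and is itself an interferon-stimulated gene, went from 1627 to 24308, a log2 difference of 3.90 (14.9-fold). Eif2ak3, the ER stress kinase PERK, was 1.57-fold lower at 2995 and 1904. Eif2ak4, the amino acid sensor GCN2, had 3702 and 3755, and Eif2ak1, the haem-regulated kinase, had 1379 and 1198, both within the technical error of 0. Of the 17 kinases, eIF2 and eIF2B subunits and regulators, 2 passed 2-fold upward and 0 downward, and the median difference was 0.02. The other was Impact, an inhibitor of GCN2 activation, at 2.26-fold by its brighter probe and 2.06-fold by its other. Beside the counts of this list and of those below, the shares over all genes were 11.1% upward and 4.95% downward. Kinase activity was not measured, and the part of PKR in the members' signals was not tested.

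Known targets of ATF4 in amino acid supply mostly had differences above 0, and most lay within 2-fold. Of 19 amino acid transport and synthesis genes seen, 6 passed 2-fold upward and 0 downward, and the median log2 difference was 0.93. Slc7a11, the cystine carrier of the exchanger xCT, went from 51.7 to 571, a log2 difference of 3.47 with a technical error of 0.33. The signal in the GFP-labelled line was near the lowest above background on that array, 38.1. The partner chain of Slc7a11, Slc3a2, was 2.56-fold higher at 35611 and 91292. Aldh1l2, a mitochondrial folate enzyme, was 2.51-fold higher and Gpt2, a mitochondrial transaminase, 2.25-fold. The remaining genes past 2-fold were Slc7a5 (2.03-fold) and Psph (2.02-fold). Of the 19, 18 had a difference above 0, where the median log2 difference of all genes was -0.06. The exception was Slc38a2, a neutral amino acid carrier, at 32449 in the GFP-labelled line and 21433 in the other (-0.60 on the log2 scale). The count past 2-fold was 10 under loess and where arrays were scaled on the median of shared detected probes, and 5 under quantile normalization and with the median over a gene's probes.

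The cytosolic aminoacyl-tRNA synthetases, which load tRNAs with amino acids and include known ATF4 targets, were mostly higher by less than 2-fold. Of 19 seen, 2 passed 2-fold upward and 0 downward, beside 11.1% and 4.95% of all genes. A difference above 0 was found for 18, with a median of 0.52, where the median of all genes was -0.06. Nars went from 3928 to 9287 (2.36-fold) and Cars from 16795 to 35751 (2.13-fold). Qars was the single synthetase with a negative difference, -0.48. Under loess 4 passed 2-fold.

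Of 15 other genes described as targets of ATF4 or CHOP, 6 passed 2-fold upward and 0 downward (median 0.71). Gdf15, a secreted stress cytokine, gave no signal well above background in the GFP-labelled line and gave 1423 in the HES1-labelled line. The ratio to its dim signal was 35.6-fold, with a technical error of 0.41 on the log2 scale. The bound left that ratio unchanged, so it is not a lower limit. Nupr1, a small stress-induced chromatin protein, went from 11322 to 52646 (4.65-fold). Vldlr, a lipoprotein receptor, was 2.89-fold higher and 2.73-fold by its other probe, and the autophagy receptor Sqstm1 was 2.34-fold higher. The other genes past 2-fold were Stc2 and Vegfa. The other 9 genes of the list lay within 2-fold. The lowest was Bcl2l11, a pro-apoptotic gene, with a log2 difference of -0.48.

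The C/EBP-ATF letters were also in promoter windows of these lists. Over all mouse windows the share was 3.97%, counting windows, while the list counts are of genes. They were present in 4 of 15 amino acid genes with a window (Pck2, Pycr1, Slc1a4 and Slc7a11) and in 5 of 13 synthetases (Aars, Gars, Iars, Tars and Yars). Of 14 other targets, 4 held them (Fgf21, Herpud1, Nupr1 and Vldlr). The counts were 2 of 16 for the other bZIP factors, 1 of 6 for paralogs, 1 of 14 for eIF2 kinases and cofactors and 1 of 8 for mitochondrial stress genes. They were 1 of 21 for the XBP1 and ATF6 branches, 0 of 18 for mTORC1 and 0 of 10 for p53 targets. These counts describe lists that share some genes, with windows on hand for part of each. The lists were chosen with earlier results known, so nothing is read from the differences in share.

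**Figure D4:**
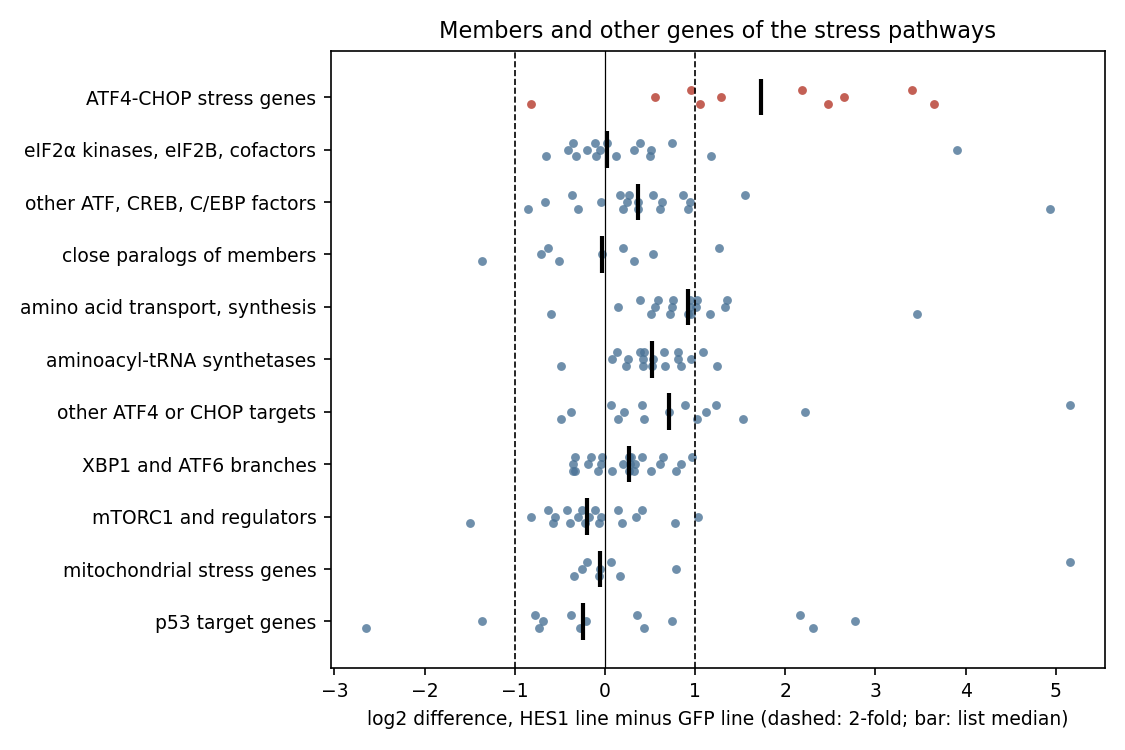
Log2 difference of the HES1-labelled line minus the GFP-labelled line for the 10 members (red) and for the genes of 10 further lists (blue), 1 point per gene, with the list median as a bar and 2-fold as dashed lines. The medians of the 10 lists run from -0.24 (p53 targets) to 0.93 (amino acid genes), and that of the members is 1.73. The members were chosen from this contrast, so nothing is read from that difference.

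The other branches of the unfolded protein response stayed within 2-fold. Of 24 genes of the XBP1 and ATF6 branches, 0 passed 2-fold in either direction, with a median of 0.27 and a range from -0.35 to 0.97. The top of that range was Hspa5, the chaperone BiP, at 56069 in the GFP-labelled line and 109574 in the HES1-labelled line. Its signal was 1.95-fold higher, and 1 or 2 genes of the list passed 2-fold under quantile, median, loess and normexp settings. Xbp1, whose mRNA is spliced by IRE1, had 22268 and 38551 (1.73-fold). The difference between this list and the members was not tested. Among 9 mitochondrial stress genes, Gdf15 alone passed 2-fold, and the median was -0.06.

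Among bZIP factors that are not members, 2 of 19 passed 2-fold upward and 0 downward (median 0.37), beside 11.1% and 4.95% of all genes. Batf2, an interferon-responsive factor, went from 102 to 3118 (30.6-fold). Crem was 2.93-fold higher by its brightest probe and 2.06-fold by another, while its remaining probe was not above background. The partners of ATF4 lay close to the line: Cebpb, at 6090 and 11531, was 1.89-fold higher and Cebpg, at 1101 and 2118, 1.92-fold. The count past 2-fold for this list was 4 under median scaling and 5 under loess.

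Close paralogs of the members had differences of both signs. Sesn1, a sestrin controlled by p53, was 2.57-fold lower at 7887 and 3074, where Sesn2 was 2.08-fold higher. Sesn3, the remaining sestrin, had a log2 difference of -0.63. Trib1 was 2.39-fold higher and 2.28-fold by its second probe, whereas Trib2 had -0.71. Chac2, the constitutive relative of Chac1, gave 481 and 471 (-0.03 on the log2 scale). Of the 9 paralogs, 1 passed 2-fold upward and 1 downward (median -0.03).

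Some members are also known p53 targets, such as Sesn2, Atf3 and Ddit4, with log2 differences of 1.06, 3.40 and -0.82. The listed p53 targets had differences of both signs as well. Of 14 p53 targets, 3 passed 2-fold upward and 2 downward (median -0.24). Plk2 (6.83-fold), Gadd45a (4.95-fold) and Cdkn1a (4.48-fold) were higher, while Perp was 6.26-fold lower and Sesn1 2.57-fold lower. A second Cdkn1a probe was not above background on either array. The activity of p53 was not measured, and its part in the members' differences was not tested. Of 20 genes of mTORC1 and its nutrient sensors, 1 passed 2-fold upward and 1 downward (median -0.19). Akt1s1, which encodes the mTORC1 inhibitor PRAS40, was 2.05-fold higher, though 0 genes of the list passed 2-fold upward under normexp. Deptor, another inhibitor of mTOR, was 2.83-fold lower at 1942 and 686. Mtor itself had a log2 difference of -0.17.

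The members' differences shifted little between processing settings. Between 12 settings, Ddit3 ranged from 3.52 to 3.80 in log2 difference, Atf3 from 3.16 to 3.55 and Trib3 from 2.62 to 2.80. Chac1 ranged from 2.48 to 2.65, Ppp1r15a from 2.14 to 2.34 and Atf5 from 1.29 to 1.47. These 6 were past 2-fold under all 12. Several of the 12 could not move a member, since members were read from single spots above background on both arrays. These were the settings on dim probes, outlier spots and bounds. The deposited values hold the same intensities, and the median over probes could change Atf4 alone. Sesn2 ranged from 0.96 to 1.20 and was past 2-fold in 11, Asns from 0.96 to 1.16 and was past it in 4. Atf4, from 0.55 to 0.79, and Ddit4, from -0.89 to -0.65, were past it in 0.

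**Figure D5:**
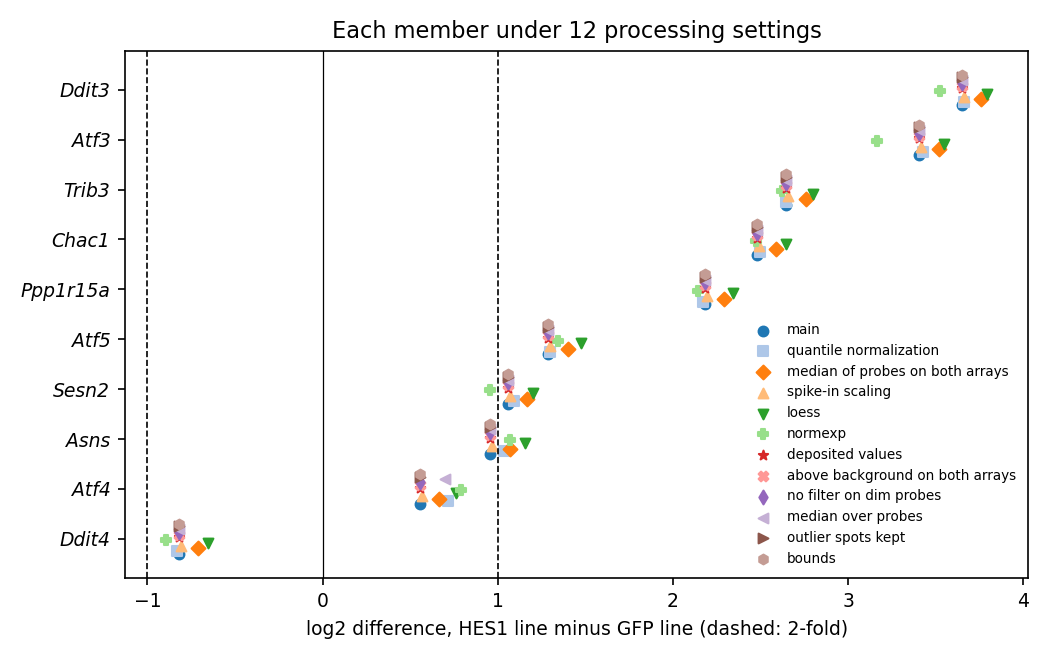
Log2 difference of each member, HES1-labelled line minus GFP-labelled line, under 12 processing settings, 1 marker per setting. Sesn2 and Asns straddle the dashed 2-fold line, and Ddit4 is below 0 under each of the 12.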

How the data were processed

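Each deposited scanner file gives processed intensity by spot, background-subtracted and detrended in Agilent Feature Extraction 10.10.1.1 (submitters' processing notes) and not scaled between arrays. The arrays shared a slide and their design was annotated on mm9, per the file headers. The deposited table holds the same intensity times 1 factor per array (1.45 and 1.53). The value used was log2 processed signal minus the array's 75th percentile over 59305 spots that are not controls. Spots with an outlier flag (1053) were left out, and spots of a probe were averaged. Names came from a RefSeq table of GRCm38.p6, and each gene took the value of its brightest probe well above background on at least 1 array. With 1 array per line no test was run, and 2-fold was the size rule. The number of arrays limits the precision. Where a gene was above background on 1 array only, a bound replaced the dim signal by the higher of its own and the lowest signal above background there (38.1 and 39.0). The technical error is the scanner's error model. Across 235 probes with at least 8 spots the median SD between spots was 0.07.

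The members and the gene lists were chosen with earlier results of these data known. The genes named were the members, up to 4 past 2-fold per list and direction or the largest, and a fixed set (Hes1, Sox9, Col2a1, Acan, the eIF2α kinases, Cebpb, Cebpg, Xbp1, Hspa5 and Slc7a11). Acan had a log2 difference of -0.37. Other genes were named after their values were seen. Some genes belong to more than 1 list. Of the other marker lists, adipocytes (2 of 5 seen) had a median log2 difference of -0.22, muscle (1 of 4) of -0.27 and epithelium (1 of 5) of 1.13, the last from Krt18, which was above background on 1 array. The pipeline was tested on simulated data. Python 3.11.15 and limma 3.58.1 were used.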

Additional observations from a re-analysis of the deposited data

How the results depend on the processing

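The count of members past 2-fold upward and the members' median moved little with the processing, while counts over all genes moved more. Of 64 alternative values for the member counts, the member median, the all-gene counts and the promoter motif count, 56 stayed within 1.5 times or within the technical error. At 1.5-fold, 1 member (Ddit4) counted as lower, in place of 0, and the all-gene counts were 2480 higher and 2084 lower. At 3-fold they were 997 and 178. Under normexp (offset 50, on median spot and background signals, then quantile normalization) they were 850 and 339, and with probes above background on both arrays 920 of 13076 genes (7.04%) were higher. The latter setting by its rule leaves out probes above background on 1 array only, and it keeps the values of the others. The cause of the change under normexp was not tested. Of 110 values for single members 107 moved by less than the technical error. The exceptions were Atf4 under loess (0.76) and normexp (0.79) and Atf3 under normexp (3.16). Many of the 110 could not move. Settings on dim probes, outlier spots and bounds leave the members' values, counts and median as they were. Of 330 values for gene lists 12 moved and 0 reversed. Scaling on the median of shared detected probes or loess (span 0.3) raised the median of all genes from -0.06 to 0.05 and 0.07, and the share of calls that were higher from 69.1% to 77.3% and 76.7%. No paired analysis was possible because each line had 1 array, and leaving out a replicate was not possible for the same reason.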
